A study of Mus musculus with 12 samples.

Results

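The genes described here are the *Dlx* homeobox genes *Dlx1*, *Dlx2*, *Dlx3*, *Dlx4*, *Dlx5* and *Dlx6*, the long non-coding RNA gene *Dlx6os1*, and *Gsx2*, a homeobox gene of the subpallium. These 8 genes were chosen by name, out of 31323 protein-coding and long non-coding genes given a window in the same way. The data are lists of peaks, stretches of the genome enriched for a histone mark over input chromatin, from native histone ChIP-seq of the neocortex of postnatal day (P)2 *Gad67-GFP* heterozygous pups, from a line of mixed background that was crossed out to CD-1 mice. Dissociated cells were sorted into GFP+ cortical interneurons (CINs) and GFP- cells (non-CINs), which are enriched for glutamatergic projection neurons and glia. Each of the 4 combinations of mark (H3K27ac or H3K27me3) and population had 2 replicates from independent experiments, each on tissue pooled from several litters, and pairs of values below are given in the order replicate 1, replicate 2. All cells of both populations came from pups that carried the GFP allele, which reports *Gad1* (*Gad67*) activity, so *Gad1* itself set the sort. A peak in a sorted pool does not say how many of its cells carried the mark, and fewer marked cells cannot be told apart from less mark per cell.

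*Dlx* genes encode homeodomain transcription factors and lie in pairs that are transcribed toward each other, with regulatory DNA in the stretch between the genes of a pair. *Dlx1*, *Dlx2*, *Dlx5* and *Dlx6* are known for their expression in the embryonic subpallium, where GABAergic neurons including CINs are born, and for their role in the differentiation and migration of these cells. *Dlx3* and *Dlx4* are known mainly from epidermis, placenta and craniofacial tissue. *Dlx6os1*, also called *Evf2*, is transcribed antisense to *Dlx6* through the space between *Dlx5* and *Dlx6*. *Gsx2* encodes a homeodomain factor of subpallial progenitors that acts upstream of *Dlx* genes and is switched off as neurons mature. H3K27ac marks active promoters and enhancers, and H3K27me3 is deposited by Polycomb repressive complex 2 at silent or poised genes.

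The window of each gene ran from 5 kb upstream of its transcription start site (TSS) to its end, in GENCODE vM21 coordinates of mm10. Covered bp are those under the peaks of a list after gaps of at most 500 bp between peaks were closed (merging). *Dlx1* (chr2:71528113-71533981, plus strand) and *Dlx2* (chr2:71543408-71546754, minus strand) form an interval of 18642 bp. *Dlx3* (chr11:95120119-95125296, plus strand) and *Dlx4* (chr11:95140447-95146263, minus strand) span 26145 bp. *Dlx6* (chr6:6863334-6868568, plus strand) and *Dlx5* (chr6:6877805-6882085, minus strand) span 18752 bp. *Dlx6os1* (chr6:6820189-6871592, minus strand) covers all of *Dlx6*, and *Gsx2* (chr5:75075601-75077893, plus strand) stands alone. Windows of one cluster overlap or share peaks, so *Dlx5*, *Dlx6* and *Dlx6os1* are not independent of each other, nor are *Dlx1* and *Dlx2*. The *Dlx1* window also holds the last 2082 bp of *Metap1d* and lies inside the antisense gene *Dlx1as*.

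Below is the DNA at the acetylated stretches that the results turn on, beside 2 promoters, from the reference genome GRCm38.p6 (mm10). The first 2 are the central 300 bases of the strongest CIN H3K27ac peak (replicate 2) between the genes of each acetylated pair, the first within an intron of *Dlx1as* and the other within an intron of *Dlx6os1*. The third is the centre of the strongest H3K27ac stretch that both CIN lists had upstream of the *Dlx1* window, in introns of *Metap1d* and *Dlx1as*. The fourth is the centre of the only H3K27ac stretch near *Gsx2* that met all 4 lists inside its window, in intergenic DNA. The last 2 are the 250 bases before the RefSeq start of *Dlx2*, wholly under H3K27ac in both CIN lists, and of *Gsx2*, of which only the end nearest the gene lay under H3K27ac and only in CIN replicate 1. Capitals mark TAATTA, a core letter sequence that many homeodomain factors bind and that reads the same on both strands.
Between *Dlx1* and *Dlx2*, chr2:71535474-71535773, plus strand: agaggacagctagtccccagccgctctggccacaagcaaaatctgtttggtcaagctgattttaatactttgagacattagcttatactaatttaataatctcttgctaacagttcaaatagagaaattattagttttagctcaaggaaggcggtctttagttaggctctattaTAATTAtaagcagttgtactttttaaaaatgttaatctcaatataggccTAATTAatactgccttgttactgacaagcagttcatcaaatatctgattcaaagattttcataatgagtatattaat
Between *Dlx6* and *Dlx5*, chr6:6870971-6871270, plus strand: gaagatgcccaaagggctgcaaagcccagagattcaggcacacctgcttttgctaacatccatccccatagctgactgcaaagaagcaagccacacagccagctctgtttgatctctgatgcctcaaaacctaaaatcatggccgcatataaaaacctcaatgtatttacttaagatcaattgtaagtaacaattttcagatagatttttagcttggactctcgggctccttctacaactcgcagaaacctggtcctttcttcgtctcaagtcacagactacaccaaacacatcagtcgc
Upstream of *Dlx1*, chr2:71517219-71517518, plus strand: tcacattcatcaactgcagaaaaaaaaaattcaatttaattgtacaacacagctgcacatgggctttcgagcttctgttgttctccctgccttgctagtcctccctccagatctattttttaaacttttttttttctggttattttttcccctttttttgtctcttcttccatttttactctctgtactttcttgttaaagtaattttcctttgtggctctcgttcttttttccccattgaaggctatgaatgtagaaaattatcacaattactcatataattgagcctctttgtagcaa
Upstream of *Gsx2*, chr5:75070899-75071198, plus strand: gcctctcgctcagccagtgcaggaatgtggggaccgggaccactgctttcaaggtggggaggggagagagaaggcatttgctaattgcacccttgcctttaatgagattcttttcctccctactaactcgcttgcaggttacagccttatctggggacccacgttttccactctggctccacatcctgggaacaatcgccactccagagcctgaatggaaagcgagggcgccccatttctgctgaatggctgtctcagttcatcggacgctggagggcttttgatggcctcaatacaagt
*Dlx2* promoter, chr2:71546755-71547004, minus strand: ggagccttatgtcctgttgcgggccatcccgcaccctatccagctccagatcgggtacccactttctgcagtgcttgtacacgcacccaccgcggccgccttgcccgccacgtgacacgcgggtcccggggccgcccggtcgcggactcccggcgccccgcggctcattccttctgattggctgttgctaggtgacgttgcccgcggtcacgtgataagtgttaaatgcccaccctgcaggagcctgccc
*Gsx2* promoter, chr5:75075351-75075600, plus strand: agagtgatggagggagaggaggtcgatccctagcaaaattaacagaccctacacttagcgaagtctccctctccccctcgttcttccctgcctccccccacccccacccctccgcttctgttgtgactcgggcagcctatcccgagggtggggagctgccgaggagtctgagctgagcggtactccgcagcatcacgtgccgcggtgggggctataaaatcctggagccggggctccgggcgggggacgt
TAATTA was found 2 times in the *Dlx1*–*Dlx2* stretch and not in the other 5. The whole peaks around the first 2 stretches held 5 copies in 3298 bp and 6 copies in 5910 bp, and the 2886 bp shared by both CIN lists around the third held 2. For comparison, 8.21% of 29628 windows of 300 bases at the centres of H3K27ac regions shared by both CIN lists held it, and 4.84% of 32851 RefSeq promoters of 250 bases. No background of like length was taken for the longer stretches, and none was matched for GC content. The GC content was 32.3% between *Dlx1* and *Dlx2*, 44.3% between *Dlx6* and *Dlx5*, 66.4% in the *Dlx2* promoter and 63.6% in the *Gsx2* promoter. These matches are descriptions of the letters and carry no measurement of binding. *Dlx1* and *Dlx6os1* also had entries in the RefSeq promoter table.

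The H3K27ac lists held 46040 to 62505 peaks and the H3K27me3 lists 36662 to 45081. The H3K27me3 lists were larger in non-CINs, at 45081 and 42575 peaks over 39.4 and 49.8 Mb. Those of CINs held 38158 and 36662 peaks over 34.5 and 44.2 Mb. More H3K27me3 bp in non-CINs was therefore a trait of the whole lists as well. Reads are not part of the lists, so depth is unknown, and a window without a peak means that none was called. Marker genes were compared with the labels of the sort. All 3 GABAergic markers (*Gad1*, *Gad2*, *Slc32a1*) had more H3K27ac in CINs in both replicates, with 31572 and 23844 bp summed over the CIN lists and 434 and 652 bp in the non-CIN lists. Of 8 glial markers 6 had more in non-CINs and 1 more in CINs, and none of the 8 was without H3K27ac in either CIN list (62819 and 60911 bp summed, against 86480 and 88000 bp in non-CINs). Of 10 pallial glutamatergic markers, 4 had more in non-CINs and 2 more in CINs, with 22796 and 15349 bp summed over the CIN lists and 19531 and 21710 bp over the non-CIN lists. Microglial markers (1 of 4 more in non-CINs, none more in CINs) summed to 13085 and 12833 bp in the CIN lists, with 19619 and 15937 bp in the non-CIN lists. Endothelial markers (1 of 4 more in non-CINs, none more in CINs) summed to 12925 and 7251 bp in the CIN lists, with 14502 and 8953 bp in the non-CIN lists. *Aif1*, *Cldn5* and *Kdr*, and the pallial markers *Neurod2*, *Neurog2* and *Slc17a7*, had no H3K27ac peak in any list, the non-CIN lists included. The part of other cells in the results on the *Dlx* genes was not tested.

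The first question was where CINs and non-CINs differ in H3K27ac over these genes. *Dlx1*, *Dlx2*, *Dlx5*, *Dlx6* and *Dlx6os1* carried H3K27ac peaks in both CIN lists and in neither non-CIN list, *Dlx3* and *Dlx4* had none in any list, and *Gsx2* had short peaks in all 4. Thus 5 of 8 genes were acetylated in CINs alone, against 1.39% of all genes. The 8 genes were chosen with earlier results of these data known. From the same libraries, the paper had already reported H3K27ac enrichment across *Dlx1* and *Dlx2* in CINs and not in non-CINs. The same 5 of 8 had more acetylated bp in CINs within both replicate numbers, against 18.2% of all genes, and none of the 8 had more in non-CINs, against 18.0%. The 2 CIN lists did not overlap the 2 non-CIN lists for these 5 genes (background 11.5%). With 2 lists against 2, the exact two-sided permutation test over lists cannot give a p below 0.333, and it gave that value for each of the 5, so no single window can pass a threshold of 0.05.

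**Figure D1:**
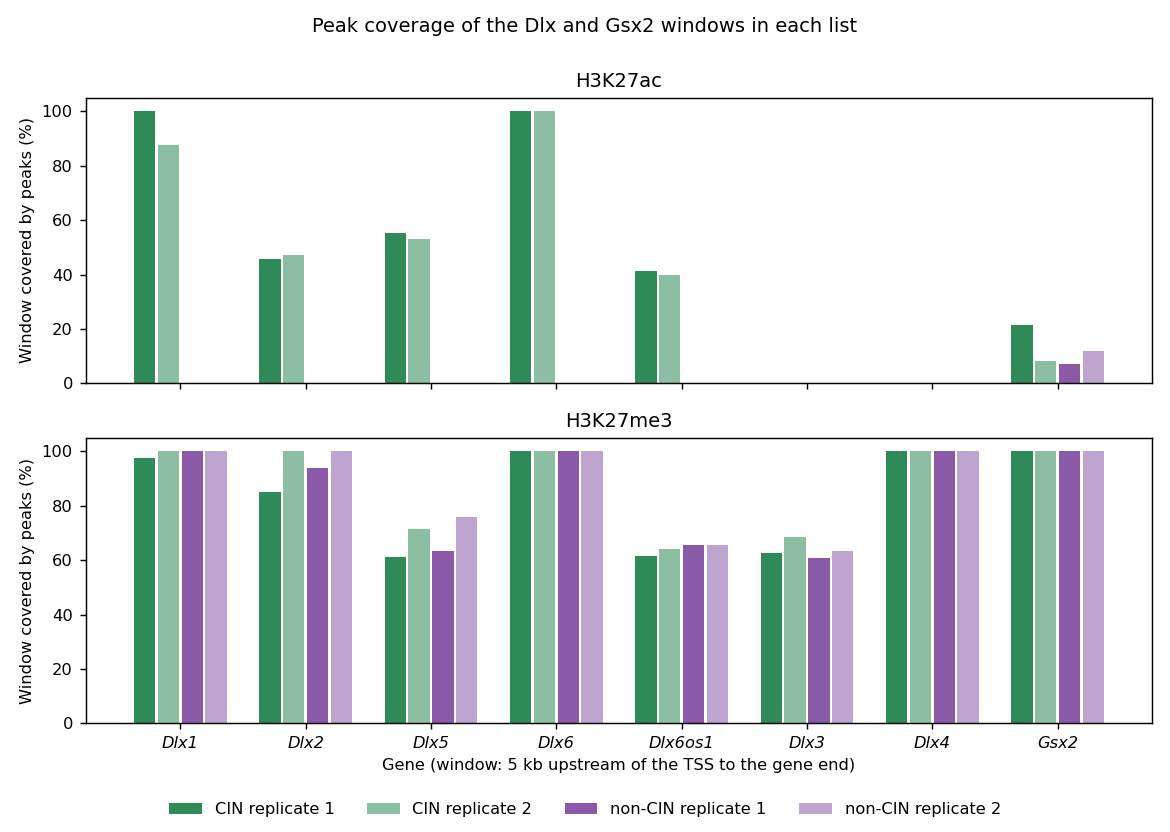
Percent of each gene's window (y axis) under merged peaks in each list, for H3K27ac (top) and H3K27me3 (bottom); each bar is 1 list, green for CINs and purple for non-CINs. H3K27ac bars stand over *Dlx1*, *Dlx2*, *Dlx5*, *Dlx6* and *Dlx6os1* only in CINs (39.8% to 100%), *Dlx3* and *Dlx4* have none, *Gsx2* has low bars in all 4 lists, and H3K27me3 bars of at least 60.6% stand over every gene in all 4 lists.

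*Dlx1*, whose product acts with DLX2 in subpallial progenitors and persists in subsets of CINs, was almost wholly acetylated. H3K27ac covered 10869 bp (100%) of its window in CIN replicate 1, 9531 bp (87.7%) in CIN replicate 2 and 0 bp in both non-CIN lists, a mean of 10200 ± 946 bp in CINs (SD, n = 2). The gene body itself, 5869 bp, lay wholly under H3K27ac in both CIN lists, and the difference between the CIN lists came from the 5 kb upstream. Peaks as deposited numbered 3 in replicate 1 and 5 in replicate 2, the longest being 9293 and 7351 bp, at the 99.92 and 99.86 percentiles of peak length in their lists. The strongest peak touching the window stood at the 80.7 and 87.3 percentiles of fold enrichment within those lists, meaning the percent of the list's peaks with the same or a lower fold. In replicate 2 this peak lay between the genes and met the window only at its edge, and the long peak over *Dlx1* itself stood at the 72.9 percentile.

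*Dlx2*, the paralog on the facing strand, was acetylated over its gene body and start but not over most of its upstream DNA. H3K27ac covered 3810 bp (45.6%) of the window in CIN replicate 1 and 3937 bp (47.2%) in CIN replicate 2, a mean of 3873.5 ± 90 bp, and 0 bp in both non-CIN lists. The gene body of 3347 bp was wholly covered in both CIN lists. Acetylation ended soon after the TSS in both CIN lists, in a peak that also covered the *Dlx2* promoter printed above. The strongest peaks stood at the 88.1 and 67.3 percentiles, and in replicate 1 it was a stretch of 13107 bp that began beyond the end of *Dlx1*.

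The whole *Dlx1*–*Dlx2* interval, including the 9426 bp between the genes, was under merged H3K27ac peaks in both CIN lists (18642 of 18642 bp) and under none in non-CINs. After merging, a continuous stretch of 24369 bp (chr2:71522849-71547217) in replicate 1 and 21810 bp (chr2:71525535-71547344) in replicate 2 spanned both genes, and ranked 14 by length among all merged H3K27ac peaks in each of these lists. Acetylation went on upstream of *Dlx1* and ended soon after the *Dlx2* TSS. In the 50 kb before *Dlx1* it covered 17156 and 9587 bp in the CIN lists, and in the 50 kb beyond the *Dlx2* TSS 1038 and 938 bp, with 0 bp on either side in non-CINs. Within that upstream DNA both CIN lists had a peak of 3652 and 3275 bp (chr2:71515926-71519577 and chr2:71515537-71518811) at the 92.6 and 78.6 percentiles, and a further one of 2056 and 1799 bp at the 92.5 and 74.5 percentiles that lay farther upstream (chr2:71511610-71513665 and chr2:71511700-71513498).

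**Figure D2:**
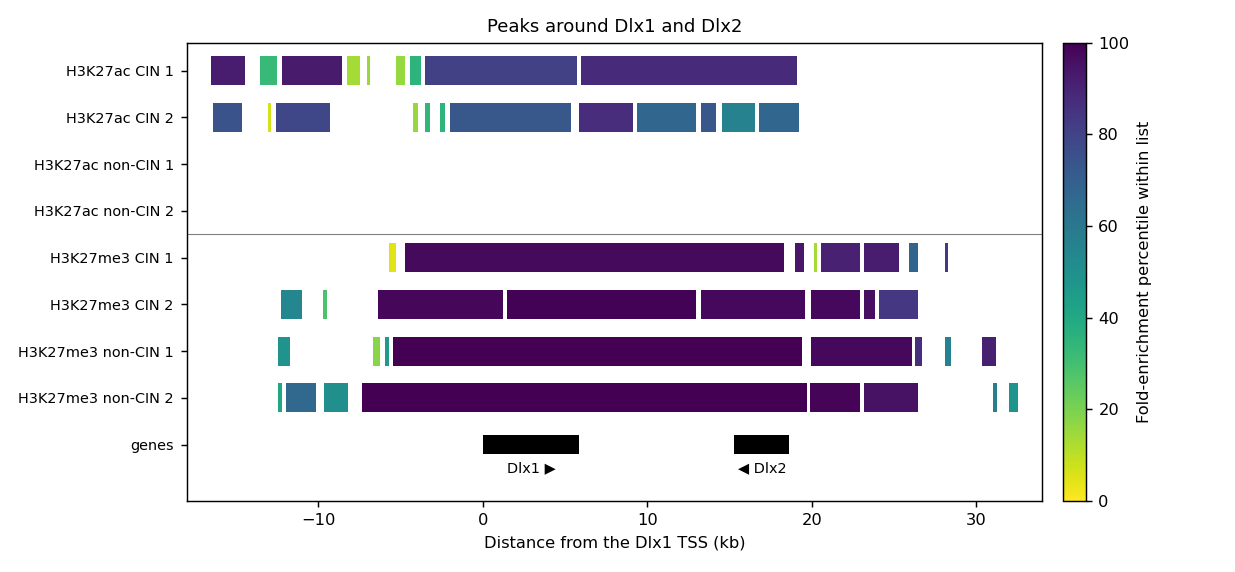
Peaks as deposited around *Dlx1* and *Dlx2*, 1 row for each list (mark, population, replicate), against distance from the *Dlx1* TSS in kb; color gives the percentile of fold enrichment within the list, and black bars with arrows give the genes and their direction. In both CIN lists H3K27ac peaks cover the interval with short gaps (18404 and 17076 of 18642 bp) and form 2 longer upstream peaks. H3K27ac is absent in both non-CIN lists, while H3K27me3 covers all or nearly all of the interval in all 4.

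*Dlx6* was the most fully acetylated of the 8. H3K27ac covered all 10235 bp of its window in both CIN lists and none in either non-CIN list. No other of the 31323 genes had a larger mean difference between CINs and non-CINs in the percent of its window under H3K27ac (100 percentage points). Only *Dlx6* exceeded *Dlx1* (93.8 points), 5 exceeded *Dlx5* (54.2 points), 10 exceeded *Dlx2* (46.4 points) and 15 exceeded *Dlx6os1* (40.6 points). For *Dlx6*, 2 peaks as deposited lay in replicate 1 and 6 in replicate 2, the strongest at the 89.4 and 88.0 percentiles. These strongest peaks lay mostly between the genes and met only the end of *Dlx6*, and the peaks that covered most of the gene body stood at the 78.9 and 68.6 percentiles.

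*Dlx5*, like *Dlx2*, was covered over its body and just past its start. H3K27ac took up 5129 bp (55.3%) of its window in CIN replicate 1 and 4923 bp (53.0%) in CIN replicate 2, a mean of 5026 ± 146 bp, and 0 bp in non-CINs. All 4281 bp of the gene body were covered in both CIN lists. The strongest peak stood at the 89.4 percentile in replicate 1, where it was the 13858 bp peak shared with *Dlx6*, and at the 66.5 percentile in replicate 2, where it was a short peak of 302 bp just upstream of the TSS.

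*Dlx6os1*, the long antisense gene, was acetylated at its own start, over *Dlx6* and over part of the DNA before *Dlx6*, not over its 3′ portion. H3K27ac covered 23367 bp (41.4%) of its 56404 bp window in CIN replicate 1 and 22430 bp (39.8%) in CIN replicate 2, and 0 bp in both non-CIN lists. The most distant H3K27ac peaks of the gene lay upstream of *Dlx6* at chr6:6850118-6851569 in replicate 1 and chr6:6850335-6850781 in replicate 2. Beyond these no H3K27ac peak was called in the rest of the gene in any list.

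Over the *Dlx5*–*Dlx6* interval, all 18752 bp including the 9236 bp between the genes lay under H3K27ac in both CIN lists and none did in non-CINs. The merged stretch was 27999 bp in replicate 1 (chr6:6854935-6882933) and 26397 bp in replicate 2 (chr6:6856331-6882727), ranked 12 and 8 by length in their lists. In both CIN lists this stretch was longer than that of *Dlx1*–*Dlx2*. In the 50 kb beyond the *Dlx5* TSS only 848 and 642 bp were covered in the CIN lists, against 10108 and 9171 bp in the 50 kb before *Dlx6*.

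**Figure D3:**
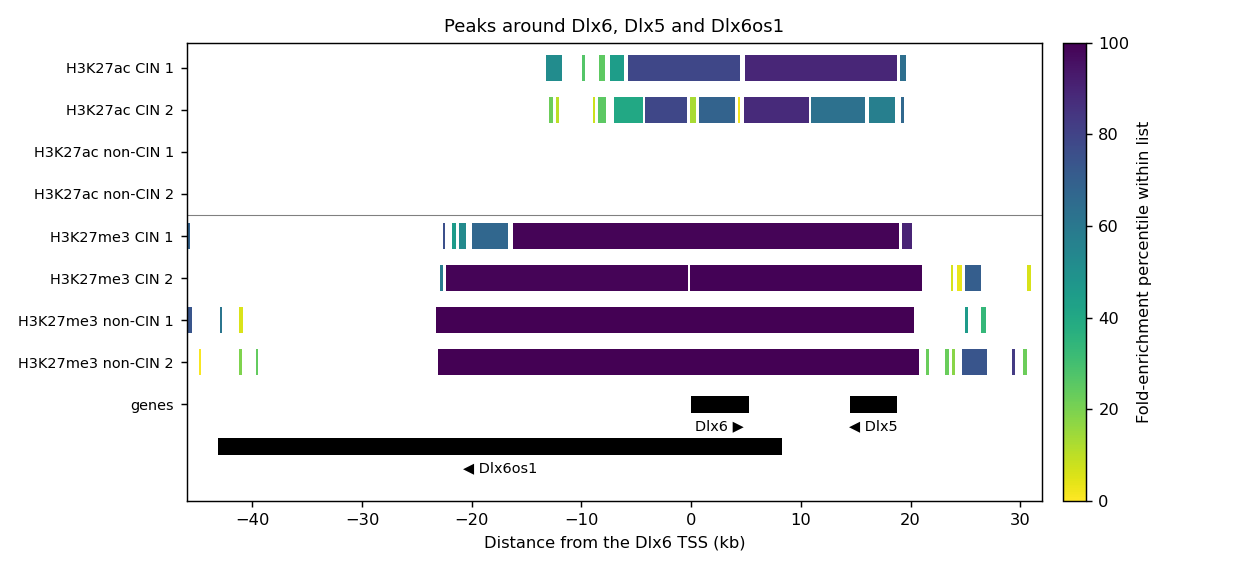
Peaks as deposited around *Dlx6*, *Dlx5* and *Dlx6os1*, 1 row for each list, against distance from the *Dlx6* TSS in kb; color gives the percentile of fold enrichment within the list, and black bars with arrows give the genes. H3K27ac peaks of both CIN lists run from upstream of *Dlx6* to just past *Dlx5*, no H3K27ac peak lies in either non-CIN list, and H3K27me3 peaks cover the interval and part of the DNA before *Dlx6* in all 4 lists.

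*Dlx3* and *Dlx4*, the pair best known outside the brain, had no H3K27ac peak in any list, neither in their windows nor in the 15150 bp between them nor in the 50 kb on either side. Both carried H3K27me3 in all 4 lists. For *Dlx3*, H3K27me3 covered 6396 and 6977 bp (62.8% and 68.5%) in the CIN lists, with 6163 and 6442 bp (60.6% and 63.3%) in the non-CIN lists. CINs thus had more in both replicate numbers, by 384 ± 214 bp, but CIN replicate 1 was below non-CIN replicate 2 and the exact permutation p was 0.667. For *Dlx4*, all 10817 bp of the window were covered in each of the 4 lists. The merged stretch over *Dlx4* extended well past the gene on both sides, at 15204 and 16309 bp in the CIN lists, with 15549 and 16794 bp in the non-CIN lists. Between the genes, H3K27me3 was sparse, at 2734 and 4614 bp in the CIN lists, with 3803 and 5821 bp in the non-CIN lists, so the mark lay mainly in 2 separate stretches, with short peaks between them. Over the whole interval H3K27me3 covered 13597 and 15609 bp in the CIN lists, with 14408 and 16699 bp in the non-CIN lists, higher in non-CINs within each replicate number, with overlapping populations (exact permutation p = 0.667).

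*Gsx2* had little H3K27ac and differed less between the populations than between the CIN replicates. H3K27ac covered 1574 bp (21.6%) of its window in CIN replicate 1, 607 bp (8.32%) in CIN replicate 2, 514 bp (7.05%) in non-CIN replicate 1 and 857 bp (11.8%) in non-CIN replicate 2. The CIN mean of 1090.5 ± 684 bp and the non-CIN mean of 685.5 ± 243 bp overlapped, with an exact permutation p of 0.667, and the 2 replicate numbers went opposite ways. The acetylated DNA that all lists shared lay at the upstream edge of the window (chr5:75070891-75071207, the fourth sequence above). At the TSS itself CIN replicate 1 had a peak of 612 bp at the 62.9 percentile and the other 3 lists had none, although non-CIN replicate 2 had a peak of 238 bp that began 69 bp downstream, at the 23.7 percentile. All 4 lists also had peaks beyond the end of the gene, the nearest of which began 6478 to 7935 bp from the TSS. The strongest peak in the window stood at the 65.0 and 35.1 percentiles in CINs against 37.4 and 27.9 in non-CINs.

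**Figure D4:**
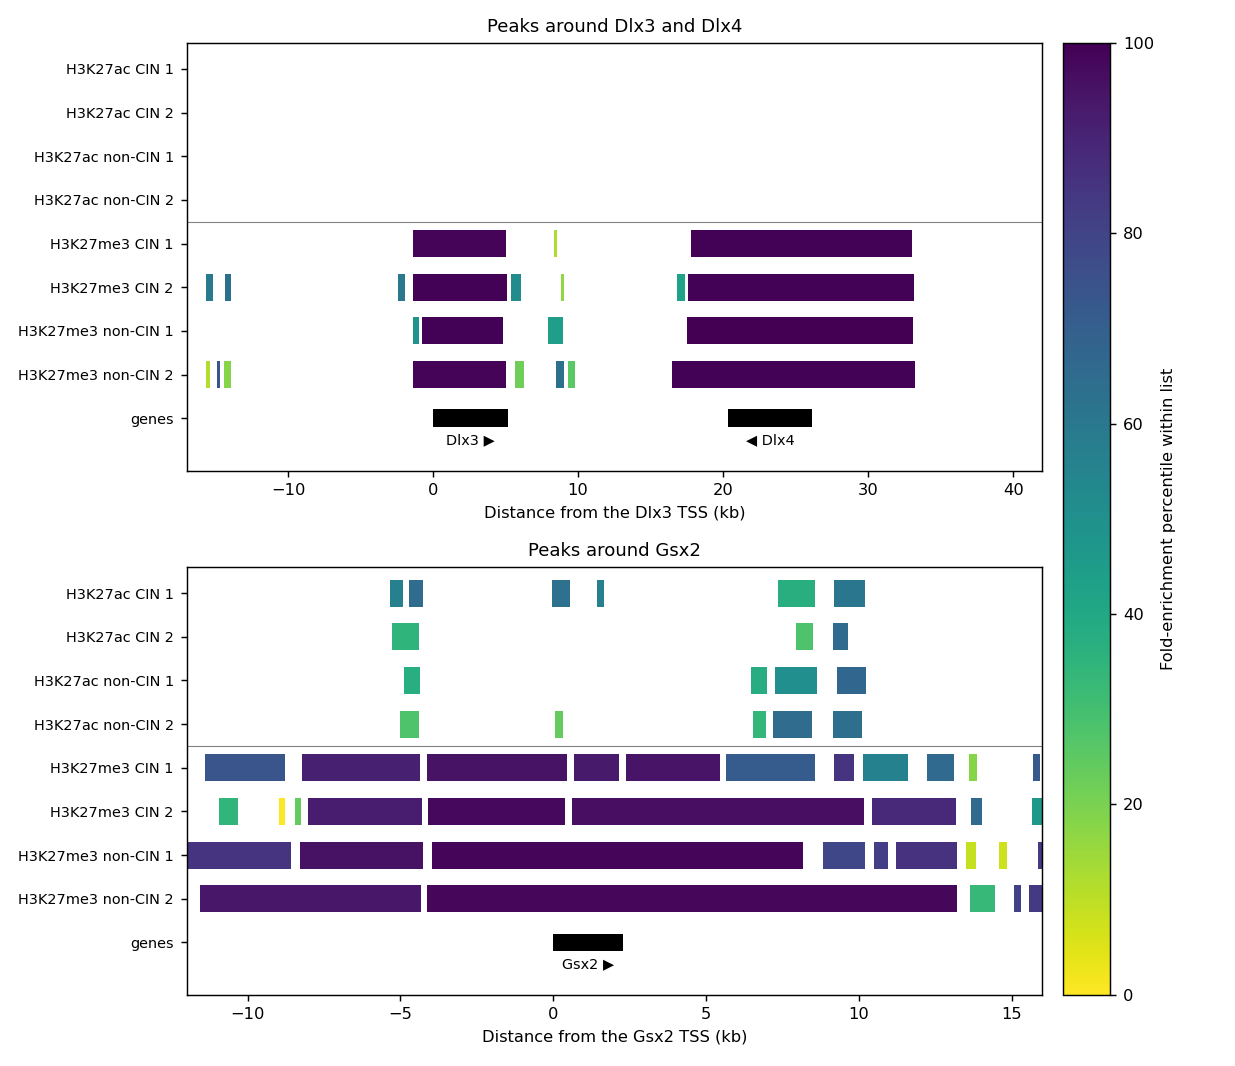
Peaks as deposited around *Dlx3* and *Dlx4* (top) and *Gsx2* (bottom), 1 row for each list, against distance in kb from the *Dlx3* or *Gsx2* TSS; color gives the percentile of fold enrichment within the list, and black bars with arrows give the genes. The *Dlx3*–*Dlx4* panel holds H3K27me3 alone, mainly in 2 blocks, and the *Gsx2* panel holds a block of H3K27me3 with short H3K27ac peaks of both populations.

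Ranked by the strongest H3K27ac peak in the window, with a window without a peak placed below any peak, 6 of 8 genes stood higher in CINs within both replicate numbers (background 20.3%). For the 5 genes acetylated in CINs alone this follows from the missing non-CIN peaks and adds nothing to that count. *Gsx2* was the only gene with ranks to compare. It did not stay apart without matching the replicate numbers, since CIN replicate 2 was below non-CIN replicate 1, and it was not higher in CINs within both numbers with the strongest 30000 peaks of each list or with windows from 2 kb.

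The second question was whether H3K27me3 over these genes differs between the populations. H3K27me3 was present at all 8 genes in all 4 lists, against 19.3% of all genes, and the genes with CIN acetylation were not an exception. The covered length differed little, and most windows were full or nearly so. *Dlx6*, *Dlx4* and *Gsx2* were covered at 100% in every list and *Dlx1* at 97.6% to 100%. For *Dlx2*, H3K27me3 covered 7085 and 8347 bp in the CIN lists, with 7845 and 8347 bp in the non-CIN lists. CIN replicate 1 was the only list without H3K27me3 over the *Dlx2* TSS, and the other 7 genes had it at the TSS in all 4 lists.

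More H3K27me3 bp in non-CINs within both replicate numbers was found for 2 of 8 genes, *Dlx5* and *Dlx6os1*, against 9.86% of all genes, and more in CINs for *Dlx3* alone (1 of 8), against 5.95%. These shares are 3087 and 1865 of all 31323 genes. Only 12266 genes had an H3K27me3 peak and genes without one could not be called, so the shares among genes with a peak are higher. The non-CIN H3K27me3 lists also covered more bp genome-wide than the CIN lists in both replicate numbers. For *Dlx5* the values were 5657 and 6640 bp in the CIN lists, with 5883 and 7047 bp in the non-CIN lists, a mean CIN minus non-CIN difference of -316.5 ± 128 bp with overlapping populations (exact permutation p = 0.667). This difference turned to 33.5 bp at −log10 *q* of at least 4 and with the strongest 30000 peaks of each list, where *Dlx5* was no longer called, nor was it with windows from 2 kb. *Dlx6os1* had 34698 and 36165 bp in the CIN lists, with 37074 and 36871 bp in the non-CIN lists, and was the only gene of the 8 whose non-CIN lists both exceeded both CIN lists (exact permutation p = 0.333, background 4.51%), while none had both CIN lists above both non-CIN lists (background 2.82%). The count of 2 genes with more H3K27me3 bp in non-CINs changed with the processing. It was 0 when a difference of 1.5 times was required, 5 when peaks were not merged and 6 with windows from 10 kb upstream.

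Covered length could not differ where windows were full in all lists, so the strongest H3K27me3 peak was also ranked within its list. At 6 of 8 genes the strongest H3K27me3 peak had the higher percentile in non-CINs within both replicate numbers (background 9.51%), and at the same 6 genes both non-CIN lists stood above both CIN lists (background 5.56%). These were *Dlx1*, *Dlx2*, *Dlx5*, *Dlx6*, *Dlx6os1* and *Gsx2*, but not *Dlx3* or *Dlx4*. Genes without an H3K27me3 peak count in both background shares and could not be called. At *Dlx1* the percentiles were 97.6 and 99.3 in CINs against 99.8 and 99.7 in non-CINs, and at *Dlx2* 97.6 and 97.7 against 99.8 and 99.7. *Dlx5*, *Dlx6* and *Dlx6os1* shared their strongest peak, at 99.0 and 99.4 in CINs against 99.9 and 99.9 in non-CINs. *Gsx2* stood at 95.2 and 97.7 in CINs against 98.6 and 98.1 in non-CINs. By contrast, *Dlx3* was at 99.2 and 99.3 in CINs against 99.4 and 99.2 in non-CINs, and *Dlx4* at 99.5 and 99.6 against 99.8 and 99.5, with the replicate numbers going opposite ways. All these peaks were near the top of their lists, so the populations differed by a few percentile points at most.

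The deposited fold enrichment over input of the strongest H3K27me3 peaks is given only as a description, since its scale may differ between lists. At *Dlx4* it was 8.482 and 11.38 in CINs against 8.954 and 12.56 in non-CINs. At *Dlx1* it was 6.181 and 10.55 in CINs against 9.03 and 13.57 in non-CINs, and at *Dlx6* 7.368 and 10.8 in CINs against 9.497 and 15.38 in non-CINs. Replicate 2 was higher than replicate 1 in each population, and CIN replicate 2 exceeded non-CIN replicate 1 at these 3 genes. The strongest *Dlx5*–*Dlx6* peak was a stretch of 43604 and 43824 bp in non-CINs, against 35217 and 21120 bp in CINs. After merging, the domains were of like length, at 40099 and 43936 bp in the CIN lists, with 43604 and 43824 bp in the non-CIN lists, ranked between 14 and 26 in their lists. The merged *Dlx1*–*Dlx2* domain was 23076 and 32810 bp in the CIN lists, with 26112 and 33805 bp in the non-CIN lists, longer in non-CINs in both replicate numbers but with overlapping populations.

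It was then asked how the marks sit together within a population. In CINs, 6 of 8 genes had DNA under both H3K27ac and H3K27me3 peaks in both replicates, against 2.55% of all genes, and in non-CINs only *Gsx2* did (1 of 8), against 1.64%. At *Dlx1* 10607 and 9531 bp were under both marks, which is 97.6% and 87.7% of the window, at *Dlx2* 3166 of 3810 and 3937 of 3937 acetylated bp, and at *Dlx5* 5129 and 4923 bp, the whole of its acetylated length. All 10235 bp of the *Dlx6* window and all 23367 and 22430 acetylated bp of *Dlx6os1* were also under H3K27me3. At *Gsx2* the shared length was 1574 and 607 bp in the CIN lists, with 514 and 857 bp in the non-CIN lists. The 5 of 8 genes with CIN-only H3K27ac combined it with H3K27me3 in all 4 lists, against 0.530% of all genes. The marks were measured in separate libraries, so shared bp do not say that both marks lay in the same cells.

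**Figure D5:**
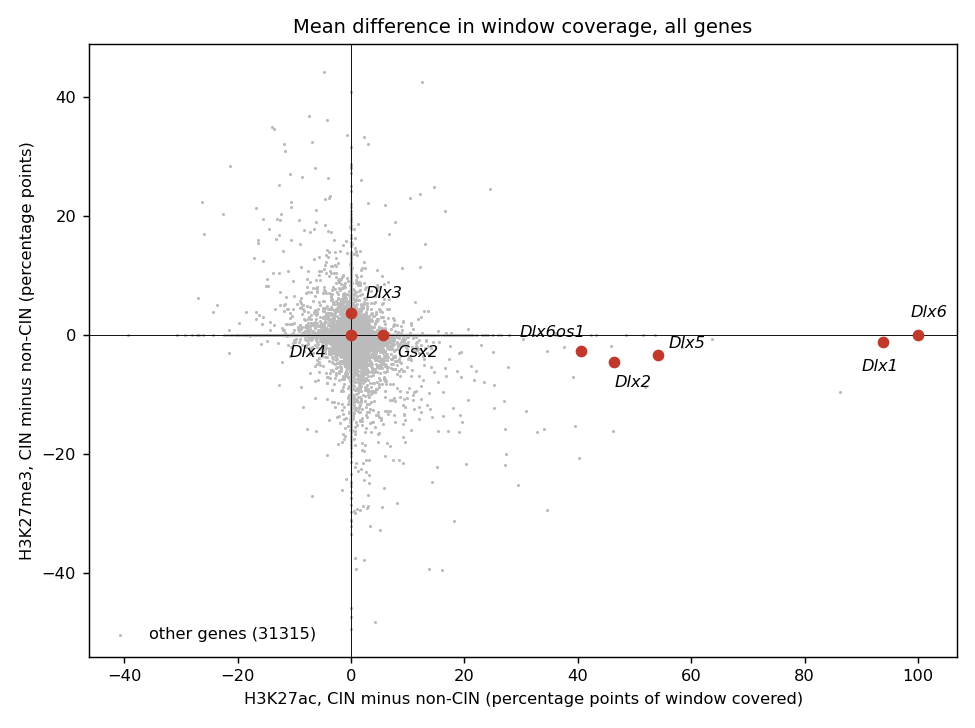
Mean CIN minus non-CIN difference in the percent of the window covered, H3K27ac on the x axis against H3K27me3 on the y axis, in percentage points; grey dots are all other genes and red dots the 8 described here. *Dlx6*, *Dlx1*, *Dlx5*, *Dlx2* and *Dlx6os1* lie far to the right, from 40.6 to 100 points, and between -4.55 and 0 points on the y axis.

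Genes with like patterns were sought over the 8 percentages of window covered, by Euclidean distance in percentage points, among protein-coding genes other than the 8. *Sp9*, *Sp8* and *Slc32a1* recurred. The nearest to *Dlx1* and to *Dlx6* was *Sp9*, a zinc finger factor of GABAergic lineages, at distances of 48.4 and 58.1 points, followed by *Slc32a1* (53.6 and 64.2), the vesicular GABA transporter, and *Sp8* (57.1 and 66.9). For *Dlx2* they were *Vax1* (22.1), a homeobox gene of the ventral forebrain, *Sp8* (24) and *Slc32a1* (27). *Dlx5* was nearest to *Islr2* (44.1), *Sp9* (45.5) and *Slc32a1* (52.4), and *Dlx6os1* to *Islr2* (33.7), *Cbx8* (38.5) and *Ccdc184* (41.2). Unlike *Dlx6os1*, *Cbx8* had H3K27ac in both populations (19.7% and 15.8% in CINs, 16.8% and 11.6% in non-CINs), as did *Ccdc184* (14.5% and 10.6% in CINs, 2.59% and 2.57% in non-CINs), and *Islr2* had 1.7% in non-CIN replicate 1. *Gsx2* was nearest to *Zic1* (19.2), *Neurod1* (19.8) and *Bhlhe22* (21.2), all wholly under H3K27me3 in 4 lists with little or no H3K27ac.

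A list of 26 genes of the subpallial and GABAergic program was set beside the *Dlx* genes. Of these, 13 had more H3K27ac in CINs and only *Meis2* (1 gene) had more in non-CINs, against 18.2% and 18.0% of all genes. H3K27me3 was higher in non-CINs at 9 and in CINs at 2, against 9.86% and 5.95%, shares over all genes with or without an H3K27me3 peak. Without the replicate block these H3K27me3 counts were 2 and 1, against 4.51% and 2.82%, and 11 genes had more H3K27ac in CINs, against 11.5%. In this list, 4 of 26 had H3K27ac in CINs alone and H3K27me3 in all 4 lists, and 23 had H3K27me3 in all 4 lists, against 0.530% and 19.3% of all genes. The median difference in H3K27ac was 1.47 percentage points, against 0 over all genes, and that in H3K27me3 -0.206 points, against 0. The largest H3K27ac differences were those of *Sp9*, with 73.1% and 54.2% of its window covered in CINs, *Slc32a1*, with 71.6% and 45%, and *Sp8*, with 63% and 44.3%, all 3 at 0 in both non-CIN lists. *Gad1*, which encodes a GABA-synthesizing enzyme, had 21.4% and 17.9% in CINs against 0.406% and 0% in non-CINs. The smallest was that of *Meis2*, a TALE homeobox gene, at 33% and 30% in CINs against 34.6% and 44.9%.

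Genes next to the *Dlx* pairs were acetylated in both populations or in neither. Of the 16 nearest protein-coding genes, 2 on each side of each pair and of *Gsx2*, none had H3K27ac in CINs alone and none had more than 19.8% of its window acetylated in any list, although 9 had more H3K27ac in CINs, and 3 more in non-CINs, within both replicate numbers, against 18.2% and 18.0% of all genes. *Metap1d*, a mitochondrial methionine aminopeptidase gene that ends 2918 bp before *Dlx1* and contains the upstream peaks, had 15224 and 7784 bp of H3K27ac in the CIN lists, with 741 and 675 bp in the non-CIN lists. On the other side of *Dlx2*, *Itga6*, an integrin gene 198861 bp away, had 4492 and 1974 bp in the CIN lists, with 6823 and 3971 bp in the non-CIN lists. Beside *Dlx5*, *Sdhaf3* (73918 bp away) had 1406 and 1211 bp in the CIN lists, with 1260 and 1125 bp in the non-CIN lists. *Itga3*, 43317 bp before *Dlx3*, had no H3K27ac in any list, as *Dlx3* and *Dlx4* did not. *Pdgfra*, the oligodendrocyte precursor receptor gene 74398 bp beyond *Gsx2*, had 2228 and 4405 bp in the CIN lists, with 981 and 1283 bp in the non-CIN lists. Of the 16 neighbors, 6 had H3K27me3 in all 4 lists, against 19.3% of all genes and all 8 of the genes described here.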

How the data were processed

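Native ChIP-seq for H3K27ac and H3K27me3 was analysed in CINs and non-CINs of P2 mouse cortex, with 2 replicates of each. Per the labels and the paper's methods, alignment by the authors used BWA 0.7.15 and mm10, reads of low mapping quality were dropped, and MACS2 gave broad peaks for every replicate over its matched input (2.2.7 in the submitters' processing notes, another version in the methods), with no local background. The deposited lists hold, for each peak, fold enrichment over input as a ratio, −log10 *p* and −log10 *q* values and a score, as the authors' caller wrote them. The score and −log10 *p* were not used. The 4 inputs entered only through the authors' calls.

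Gaps of at most 500 bp between peaks of a list were closed, a distance the study also used, and the bp of each window under merged peaks were summed. Fold enrichment was used as the percent of a list's peaks at or below a peak's value. CINs and non-CINs were compared within replicate numbers, and a gene counted when both numbers agreed in direction. The study compared populations within each replicate, and lists of the same number deviated together (Pearson r over genes of 0.327 for H3K27ac and 0.693 for H3K27me3, from 19719 and 12266 genes with a peak). The background was 31323 GENCODE vM21 protein-coding and long non-coding genes on the autosomes and X, without a filter. Genes without a peak of a mark stayed in it and could not be called as differing in that mark. The genes named were the 8 members, 2 coding neighbors on each side, the 3 nearest patterns, and a list of 26 genes, from which the 4 largest and 2 smallest H3K27ac differences were taken, of which 1 is not reported here. Members, lists and tests were chosen with earlier results of these data known. The calls of more H3K27ac in CINs, of presence and of shared bp were tested on simulated lists. Those of H3K27me3 differences and of percentiles were not. Python 3.11.15, NumPy 2.4.6 and SciPy 1.17.1 were used. Alternatives were −log10 *q* of at least 4, the strongest 30000 peaks, windows from 2 or 10 kb, no merging, other overlap minimums, no replicate block and leaving out a replicate.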

Additional observations from a re-analysis of the deposited data

How the results depend on the processing

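The 5 genes acetylated in CINs alone were called under every alternative run, and *Gsx2* joined them at −log10 *q* of at least 4, where its non-CIN peaks drop out. H3K27me3 in all 4 lists at 8 of 8 genes and the higher H3K27me3 percentile in non-CINs at *Dlx1*, *Dlx2*, *Dlx5*, *Dlx6*, *Dlx6os1* and *Gsx2* also held under every alternative run. Leaving out a replicate in turn gave 5 to 6 genes with more H3K27ac in CINs (*Gsx2* added without replicate 2), 0 to 1 with more in non-CINs (*Gsx2*, without replicate 1) and 6 to 8 with a higher H3K27me3 percentile in non-CINs.

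The count of genes with more H3K27me3 bp in non-CINs (2) was 1 at −log10 *q* of at least 4, 1 with the strongest 30000 peaks, 1 with windows from 2 kb, 6 with windows from 10 kb, 5 without merging, 0 at 1.5 times, and 2 to 4 with a replicate left out. Without the replicate block it was 1, and the count with more in CINs (1, *Dlx3*) was 0 without the block and 0 at 1.5 times. Among the 8 genes the block changed no other call on covered bp, and without it 5 had the higher H3K27ac percentile. Both marks shared DNA in non-CINs at *Gsx2* (1 gene) but at 0 genes at −log10 *q* of at least 4, with the strongest 30000 peaks and with windows from 2 kb. The last 2 of these settings also took *Gsx2* from the 6 genes with both marks in CINs and from the 6 with the higher H3K27ac percentile in CINs, leaving 5 of each. The causes were not tested.

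The mean H3K27me3 difference at *Dlx5* turned from -316.5 bp to 33.5 bp in CINs' favor at −log10 *q* of at least 4 and with the strongest 30000 peaks. The mean H3K27ac difference at *Gsx2*, which was not a call, turned from 405 bp to -250 bp without replicate 1. Of 148 recomputed differences, 33 others moved by more than 1 SD. Lists hold no reads, so the precision of single peaks is unknown, and with 2 replicates SDs are rough.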

Other observations

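Among all 31323 genes, 16 had a mean H3K27ac difference between CINs and non-CINs at least as large as that of *Dlx6os1*. They held 5 of the 8 genes described above, 4 other protein-coding genes and 7 other long non-coding genes. These were looked up after the values were seen. The coding genes were *Sp9* (63.6 points), *Slc32a1* (58.3), *Sp8* (53.6) and *Vax1* (42.3), each at 0% in both non-CIN lists and each under H3K27me3 in all 4 lists, at no less than 85.8% of the window. *Dlx1as*, which runs antisense through *Dlx1* and shares its peaks, had 94.0% and 78.7% of its window acetylated in CINs and none in non-CINs. The other 6 long non-coding genes all had H3K27ac in at least 1 non-CIN list, the highest being *Gm47921* with 83% and 64.4% in CINs against 26.8% and 23.7%, and *Gm15875*, *Gm47921* and *2210008F06Rik* had no H3K27me3 in any list. H3K27me3 covered 75.4% and 83.4% of the *Dlx1as* window in CINs and 81.2% and 96.7% in non-CINs.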
